A study of Mus musculus with 16 samples.

Results

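Solute carriers are membrane proteins that move amino acids, sugars, phosphate, metals, organic ions and other small solutes, numbered in families by sequence and substrate. The genes described here were taken by symbol: every array probe whose single gene symbol began with Slc or Slco and a family number, less 6 genes left out by name (Slc22a5, Slc12a1, Slc8a1, Slc37a4, Slc27a2 and Slc25a17), of which 5 matched a probe. The pattern matched 285 probes, and 280 probes of 209 genes in 48 families remained, out of 9930 genes named on the array. Of these, 279 probes of 208 genes passed the filter on missing values and were tested. Slc14a2, a urea transporter of the inner medulla, was measured in too few mice.

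In the kidney, these carriers do much of the work of the nephron. Sodium-coupled carriers in the brush border of the proximal tubule recover filtered glucose, amino acids, phosphate and sulfate, while carriers in the basolateral membrane pass them to the blood and take up organic anions and cations for secretion. Carriers of the Slc25 family sit in the inner mitochondrial membrane and exchange nucleotides, phosphate, dicarboxylates and cofactors. MFP2, encoded by Hsd17b4, is a peroxisomal enzyme that shortens very long and branched acyl chains and the side chains of bile acid precursors.

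Kidney RNA came from 4 individual male MFP2-/- mice and from 1 pool of 5 males given as wt (Swiss strain SWR/Ola Hsd), all 15 weeks old. The labels give only the genotype, and no background strain, for the mutants, so a difference of strain and one of genotype cannot be told apart. For mouse 1 the array titles and the source name give different animal numbers. The source name was used to tell the mice apart. Each mouse was hybridised with the pool on 4 two-colour cDNA arrays, 2 with the mutant RNA in Cy5 and 2 with it in Cy3. The 16 arrays held 19737 to 20228 values each, and their medians before centring lay between -0.147 and 0.097. Arrays of a mouse share its RNA, so they were averaged to 1 value a mouse, and n counts mice. The pool is a single control sample on every array, which leaves the spread between wild-type animals unmeasured. The files hold ratios without intensities, so neither a transcript's level nor the presence of kidney markers could be checked, and the number of arrays limits the precision.

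All values are log2 ratios of mutant over pool, a direction that is likely rather than stated. The labels put the mutant in the first channel throughout, and the base was inferred from the values. Hsd17b4 itself had 2 probes that disagreed, with means of -0.91 ± 0.80 and 0.43 ± 0.34 (SD, n = 4), and the gene was not called by limma (mean -0.24 ± 0.45, adjusted p = 0.655). In mice 1 to 4 the first probe had -1.69, -1.50, -0.10 and -0.34, and the second 0.02, 0.83, 0.34 and 0.52. The first probe was thus far lower in mice 1 and 2 than in mice 3 and 4. As the probes disagreed, neither checks the genotype, and the labels were used as given.

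The first comparison asked which carriers differed between the mutants and the pool. None of the 208 tested genes passed limma's test of the mean ratio against 0 at an adjusted p of 0.05, where 0.0 percent of all 16140 rows passed (a row is a gene, or a probe without a gene name). The smallest adjusted p of a carrier was 0.548, and that of any row was 0.327. An unadjusted p under 0.05 was found for 24 carriers (11.5%), beside 9.04 percent of all rows. Of the 24, 15 were higher (7.21%, beside 5.83 percent of rows) and 9 were lower (4.33%, beside 3.21 percent of rows). Values of single genes are therefore given as measurements, not as changes. Without mouse 2, 13 carriers had an unadjusted p under 0.05 (6.31%, beside 6.05% of rows), and without mouse 4 there were 8 (3.92%, beside 5.28%). If the values ran Cy5 over Cy3 on every array, 12 of the 24 would change sign. A fit to single arrays, in which the mouse was a random block, called 4 carriers (1.92%, beside 1.37 percent of rows): Slc15a2, Slc16a9, Slc17a7 and Slc22a21. Its estimated correlation within mice was 0.0355, so arrays counted almost as separate samples.

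The ratios of the carriers were small. Their mean ratios ran from -0.33 to 0.59 with a median of 0.016, beside 0.012 for all named genes, and 177 of the 208 lay within 0.2 of 0. The median SD between mice was 0.143, beside 0.151 for all rows. Repeat hybridisations of a mouse in one dye orientation differed with a median SD of 0.252. In 88 carriers (42.3%) the mean ratio had the same sign in both dye orientations, as it did in 40.2% of all rows. Among the 24 carriers with an unadjusted p under 0.05, 21 did so, and 20 had one sign in every mouse, but both counts follow in part from the choice by p.

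**Figure D1:**
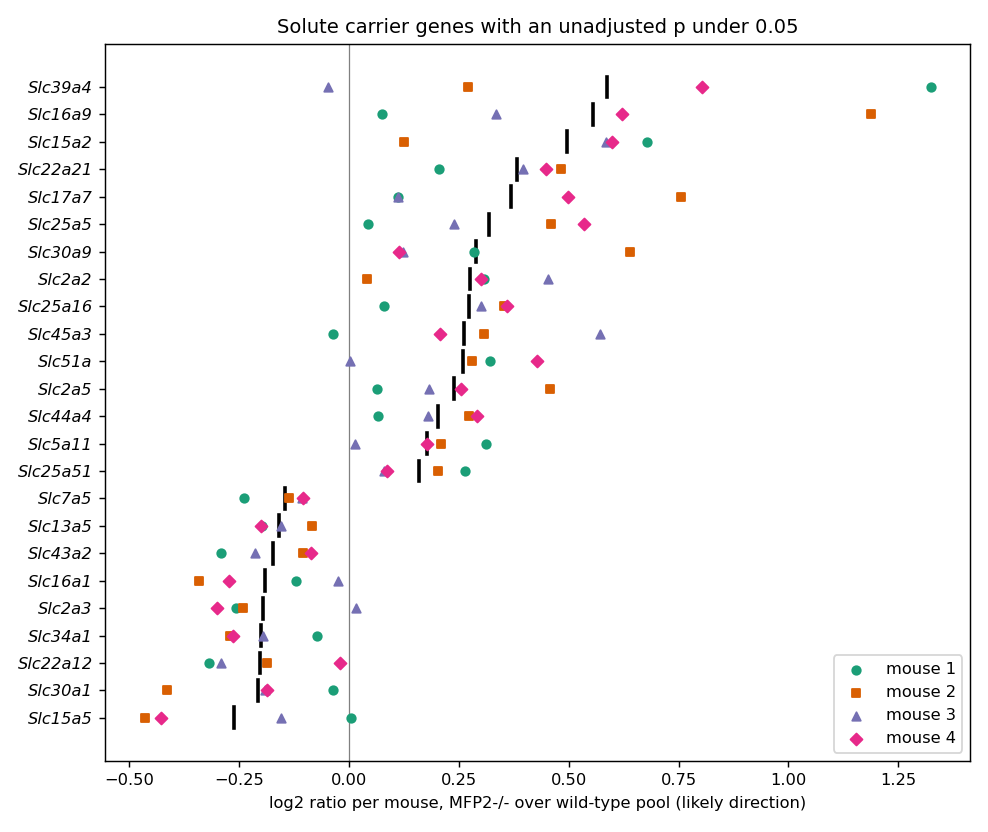
Log2 ratio of mutant over pool in each of the 4 mice (symbols) for the 24 carriers with an unadjusted p under 0.05, ordered by their mean (black bars). The means run from -0.26 for Slc15a5 to 0.59 for Slc39a4, and 20 of the 24 have one sign in every mouse.

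Amino acid and peptide carriers made up the largest class, with 47 genes of the families Slc1, Slc3, Slc6, Slc7, Slc15, Slc32, Slc36, Slc38, Slc43 and Slc66. Their median was 0.01 (-0.00 without centring of the arrays), and 28 of the 47 means were positive (25 as Cy5 over Cy3). Slc15a2, the high-affinity peptide transporter PEPT2 of the late proximal tubule, had ratios of 0.68, 0.13, 0.58 and 0.60 in mice 1 to 4. Its 16 arrays ran from -0.41, on an array of mouse 2, to 0.94, and 15 of them lay above 0. Mouse 2 stood below the other mice, which lay close together. The mean was 0.50 ± 0.25 (SD, n = 4), a 1.41-fold ratio with a 95% interval of 0.24 to 0.75 on the log2 scale from limma's fit. That interval makes no allowance for the number of genes tested, and limma's adjusted p was 0.548.

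Slc43a2, the branched-chain amino acid carrier LAT4 of the basolateral membrane, had -0.17 ± 0.10 (SD, n = 4) and was negative in every mouse. Its probes differed, with means of -0.33 and -0.01. Slc15a5, a less studied relative of the peptide carriers, had -0.26 ± 0.22, from -0.46 in mouse 2 to 0.00 in mouse 1. Slc7a5, the light chain of the LAT1 exchanger, had -0.15 ± 0.06. Its orientations differed in sign, with -0.32 with the mutant in Cy5 and 0.03 with the mutant in Cy3.

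Slc3a1, the heavy chain of the cystine carrier of the brush border, had 0.06 ± 0.08, and Slc3a2, the heavy chain shared by basolateral exchangers, had -0.01 ± 0.46 in the 3 mice measured. The light chains of the basolateral exchangers had 0.01 ± 0.17 for Slc7a7 and -0.12 ± 0.11 for Slc7a8. The glutamate carrier Slc1a1 had 0.07 ± 0.08, the imino acid carrier Slc6a20a 0.04 ± 0.13 and the glutamine carrier Slc38a3 0.03 ± 0.10. None of these genes had an unadjusted p under 0.05. Slc6a6, the taurine carrier, ranged from -0.75 in mouse 2 to 0.65 in mouse 4, with a repeat SD of 1.01, so its mean of -0.11 is not resolved from 0. By family, 5 of the 6 Slc1 genes had positive means and 5 of the 7 Slc7 genes had negative ones, with medians of 0.09 and -0.09. These were -0.04 and -0.12 as Cy5 over Cy3. With the mutant in Cy5 alone the Slc7 median was -0.20, with 5 of 7 means negative. In Cy3 alone the Slc7 median was 0.03, with 2 of 7 negative. The Slc1 medians were 0.06 in Cy5 alone and 0.13 in Cy3 alone.

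Sugar carriers (Slc2, Slc5, Slc37, Slc45 and Slc50) counted 19 genes, with a median of -0.00 (0.00 with scaled arrays, -0.07 as Cy5 over Cy3). At an unadjusted p under 0.05, 4 of the 19 were higher and 1 was lower, where 5.83 percent of all rows were higher and 3.21 percent lower. Slc2a2, the basolateral glucose transporter GLUT2 of the early proximal tubule, had 0.31, 0.04, 0.45 and 0.30 in mice 1 to 4, a mean of 0.28 ± 0.17 (SD, n = 4). Only 7 of its 15 arrays lay above 0, and its repeat SD was 0.484. The mice thus agreed in sign although their arrays did not.

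The fructose transporter Slc2a5 had 0.06, 0.46, 0.18 and 0.25 in mice 1 to 4, a mean of 0.24 ± 0.17. Slc5a11, which carries myo-inositol with sodium, had 0.18 ± 0.12 and was positive in every mouse. Slc45a3, a proton-coupled sugar carrier, had 0.26 ± 0.25, with mouse 1 at -0.04. Its highest value, 0.57 in mouse 3, came from 1 array at 2.13, while the other arrays of that mouse lay between -0.01 and 0.15. Slc2a3, the high-affinity glucose transporter GLUT3, had -0.26, -0.24, 0.02 and -0.30, a mean of -0.19 ± 0.14. Slc5a1, the sodium-glucose cotransporter SGLT1 of the late proximal tubule, had 0.12 ± 0.22, smaller than its spread.

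**Figure D2:**
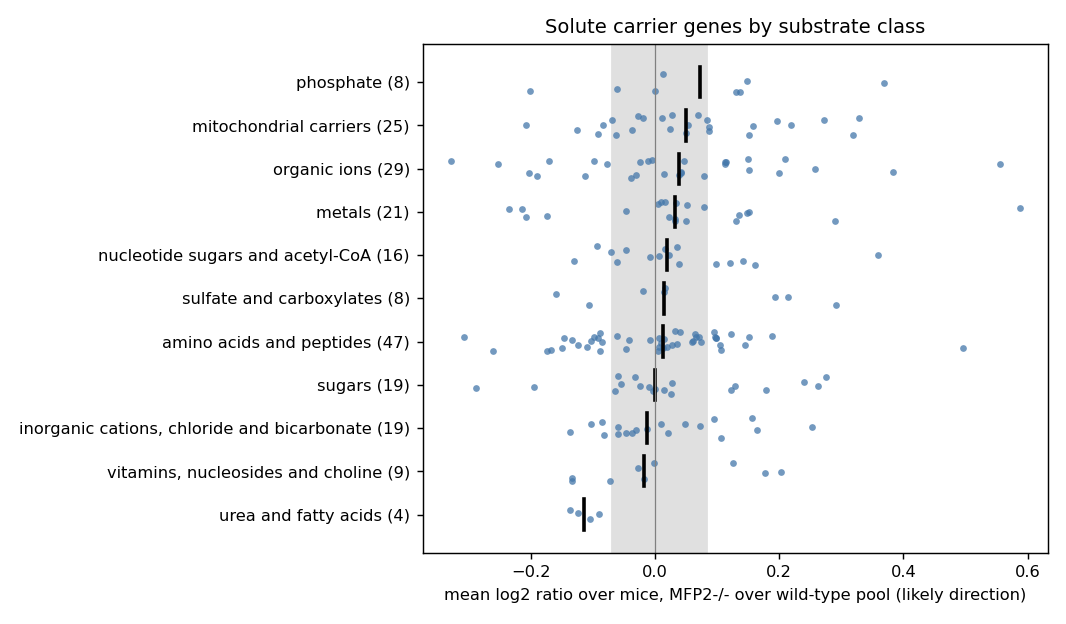
Mean log2 ratio over mice of each carrier (points) by substrate class, with the number of tested genes in brackets, the class median (black bar) and the middle 50% of all rows (grey band). Class medians lie between -0.11 and 0.07, and those of 4 classes change sign under a scaling alternative: amino acids and peptides, and sulfate and carboxylates, without centring; sugars, and inorganic cations, with scaled arrays. Read as Cy5 over Cy3, the medians of 6 classes change sign: phosphate, mitochondrial carriers, metals, nucleotide sugars, vitamins, and urea and fatty acids. With the mutant in Cy5 alone and in Cy3 alone, medians differ in sign for inorganic cations (-0.09 and 0.11) and sugars (-0.07 and 0.07). They also do for metals (-0.02 and 0.06), nucleotide sugars (-0.007 and 0.099) and vitamins (0.07 and -0.05). Sulfate and carboxylates (0.13 and -0.01) and amino acids and peptides (-0.015 and 0.019) differ in sign too.

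Phosphate carriers (Slc17, Slc20 and Slc34) had a class median of 0.07 over 8 genes, with 6 positive means (4 without centring). The median was -0.00, with 4 positive means, as Cy5 over Cy3. Slc34a1, the sodium-phosphate cotransporter of the proximal tubule brush border, had -0.07, -0.27, -0.19 and -0.26 in mice 1 to 4. All mice lay below 0, as did 13 of the 16 arrays, and the mean was -0.20 ± 0.09 (SD, n = 4), a 0.870-fold ratio. The size depended on the dye, with -0.05 with the mutant in Cy5 and -0.35 with the mutant in Cy3. Slc34a3, its relative in the same membrane, had -0.06 ± 0.09.

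The other phosphate carriers lay at or above 0. Slc17a7, a vesicular glutamate transporter known from neurons, had 0.11, 0.76, 0.11 and 0.50 in mice 1 to 4, a mean of 0.37 ± 0.32 with 13 of 16 arrays above 0. Slc20a2, a sodium-phosphate cotransporter of many tissues, had 0.15 ± 0.12 and its relative Slc20a1 had 0.00 ± 0.22. Slc17a1 and Slc17a3, organic anion and urate carriers of the apical proximal tubule, had 0.13 ± 0.21 and 0.01 ± 0.35. The class median was -0.05, 0.23, -0.02 and 0.18 in mice 1 to 4, so mice 2 and 4 lay above the others.

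Proximal tubule markers ran in the same order of mice: the median ratio of the 8 measured of 12 listed was -0.01, 0.30, 0.10 and 0.25 in mice 1 to 4. Of these 8, 7 had positive means (5 as Cy5 over Cy3), from -0.14 for Dpep1 to 0.66 for Miox. Their part in the values of the phosphate carriers was not tested. In whole kidney RNA, fewer cells of a type and less RNA per cell cannot be told apart.

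**Figure D3:**
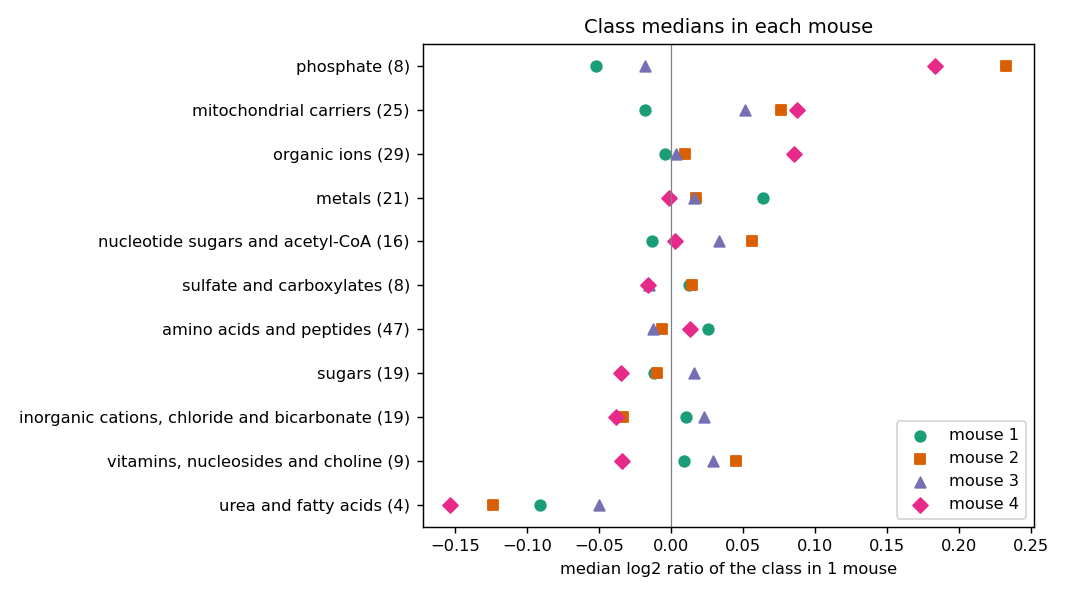
Median log2 ratio of each substrate class in each mouse, with the number of tested genes in brackets. The phosphate class runs from -0.05 in mouse 1 to 0.23 in mouse 2, and the urea and fatty acid class is negative in all mice, from -0.15 to -0.05; without centring the medians of the amino acid and of the sulfate classes over mice turn negative, and with scaled arrays those of sugars and of inorganic cations turn positive. Read as Cy5 over Cy3, the medians over mice are -0.00 for phosphate and 0.01 for urea and fatty acids.

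Organic ion carriers (Slc16, Slc18, Slc22, Slc47, Slc51 and Slco) counted 29 genes with a median of 0.04 (0.03 as Cy5 over Cy3). At an unadjusted p under 0.05, 3 of the 29 were higher and 2 lower, beside 5.83 and 3.21 percent of all rows. Slc22a21, the carnitine carrier OCTN3, had the smallest p of all carriers, with ratios of 0.21, 0.48, 0.40 and 0.45 in mice 1 to 4. The mice did not straddle 0, and 15 of the 16 arrays were positive. The size depended on the dye: arrays ran from 0.21 to 0.81 with the mutant in Cy5 and from -0.01 to 0.50 in Cy3. The mean of Slc22a21 was 0.38 ± 0.12 (SD, n = 4), with a 95% interval of 0.21 to 0.55 on the log2 scale. That interval makes no allowance for the choice of this gene by its p, and limma's adjusted p was 0.548.

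Slc51a, which exports bile acids and steroids across the basolateral membrane as the alpha chain of a heterodimer, had 0.32, 0.28, 0.00 and 0.43 in mice 1 to 4. Its mean was 0.26 ± 0.18, while the partner chain Slc51b had 0.04 ± 0.12. Slc22a12, the apical urate exchanger URAT1, was negative in every mouse with a mean of -0.20 ± 0.14. Its orientations differed in sign, with 0.05 with the mutant in Cy5 and -0.46 with the mutant in Cy3. Slc16a1, the lactate and pyruvate carrier MCT1, had -0.19 ± 0.14 and was also negative in every mouse.

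Among the basolateral carriers for drug and toxin secretion, the organic anion transporter Slc22a6 had 0.02 ± 0.18 and its relative Slc22a8 had 0.21 ± 0.25. The organic cation transporter Slc22a2 had 0.15 ± 0.16. Among the Slc22 family 8 of 12 means were positive (7 without centring), with a median of 0.06, and among the Slco family 3 of 7 were positive, with a median of -0.03. As Cy5 over Cy3 the medians were 0.05 and 0.02.

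The second comparison asked whether the mutants differed among themselves by more than arrays of the same mouse. Limma's F-test with a dye term called 2 of 204 carriers (0.980%), where 0.189 percent of 15856 rows passed. At an unadjusted p under 0.05 it had 25 carriers (12.3%), beside 11.2 percent of rows. Both called genes were organic ion carriers: Slco1a6, an organic anion transporter known mainly from the kidney of mice, with an adjusted p of 0.00905, and Slc16a9, the monocarboxylate transporter relative MCT9 linked to carnitine, with 0.0116. The spread in this test is that between arrays.

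The 250 bases before the start of each called gene are shown because these 2 were called in the F-test. They come from RefSeq on GRCm38.p6, at chr6:142186150-142186399 on the minus strand for Slco1a6 and chr10:70245026-70245275 on the plus strand for Slc16a9. Capitals mark the GC box GGGCGG, read on either strand.
Slco1a6: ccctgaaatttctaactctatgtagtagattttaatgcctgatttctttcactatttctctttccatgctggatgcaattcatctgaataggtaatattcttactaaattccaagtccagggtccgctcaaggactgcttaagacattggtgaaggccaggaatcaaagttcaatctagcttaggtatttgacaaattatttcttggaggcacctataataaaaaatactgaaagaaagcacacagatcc
Slc16a9: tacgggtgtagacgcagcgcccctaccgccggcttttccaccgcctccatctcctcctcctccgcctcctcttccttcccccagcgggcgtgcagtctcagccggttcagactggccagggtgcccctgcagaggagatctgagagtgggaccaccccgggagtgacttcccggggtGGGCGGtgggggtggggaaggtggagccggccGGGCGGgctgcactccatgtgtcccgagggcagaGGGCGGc
The 2 windows differ in composition, with 36.4% G and C for Slco1a6 and 70.4% for Slc16a9, beside medians of 52.4% over all promoters and 58.8% over those of the carriers. The window of Slc16a9 held 3 GC boxes and that of Slco1a6 held 0; 53.7% of 218 windows of 163 carriers, and 32.7% of all, held one. Neither held the TATA box TATAAA (12.4% of all windows, 5.50% of those of carriers) or the letters GTTAAT, part of the site known for HNF1, (6.43% and 4.59%). These matches are descriptions of the letters.

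Slco1a6 had ratios of -1.05, -0.04, -0.52 and 0.30 in mice 1 to 4, each with a standard error of 0.10 in the F-test. The arrays ran from -1.29 to -0.67 in mouse 1, from -0.76 to -0.27 in mouse 3, from -0.28 to 0.15 in mouse 2 and from 0.16 to 0.40 in mouse 4. Neighbours in this order overlapped for mice 1 and 3 and for mice 3 and 2, while mouse 4 lay above the rest on every array. Because the mice fell on both sides of 0, the mean of -0.33 ± 0.59 (SD, n = 4) was not resolved from the pool. The repeat SD was 0.146, below the median of carriers.

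Slc16a9 had 0.08, 1.19, 0.34 and 0.62 in mice 1 to 4, each with a standard error of 0.10. All arrays of mouse 2 lay at or above 1.04, and of the others only 1 array, of mouse 4 at 1.08, reached that value. Mice 1, 3 and 4 overlapped one another, with arrays from -0.192 to 0.35, from -0.125 to 0.831 and from 0.308 to 1.083. The mean was 0.56 ± 0.48 (SD, n = 4), a 1.47-fold ratio. The orientation means were 0.80 for mutant RNA in Cy5 and 0.32 for mutant RNA in Cy3.

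Both calls depended on which mice were included. Without mouse 1 neither gene passed, with an adjusted p of 0.208 for each in limma's F-test. Without mouse 2, Slc16a9 had 0.355 and Slco1a6 0.00580, and without mouse 4, Slco1a6 had 0.116 and Slc16a9 0.0460. Without mouse 3 both passed, with 0.0293 for Slco1a6 and 0.0413 for Slc16a9. With each array scaled, Slc16a9 had an adjusted p of 0.0634 and Slco1a6 of 0.0250, and with values read as Cy5 over Cy3 they had 0.981 and 0.972.

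The mice also lay far apart in carriers that were not called. Slc6a4, the serotonin transporter, had 0.52, -1.93, 0.27 and -0.08 in mice 1 to 4, and was not called in the F-test. Its 15 arrays ran from -3.13 to 1.63, and those of mouse 2 lay between -3.13 and -0.46. Slc13a1, the apical sodium-sulfate cotransporter, had -0.18, 0.56, 0.12 and 0.35, with an adjusted p of 0.0852. As in the phosphate class, mouse 2 was highest and mouse 1 lowest. Among all rows measured in 4 mice, mouse 2 was the highest in 31.0% and the lowest in 29.7%.

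**Figure D4:**
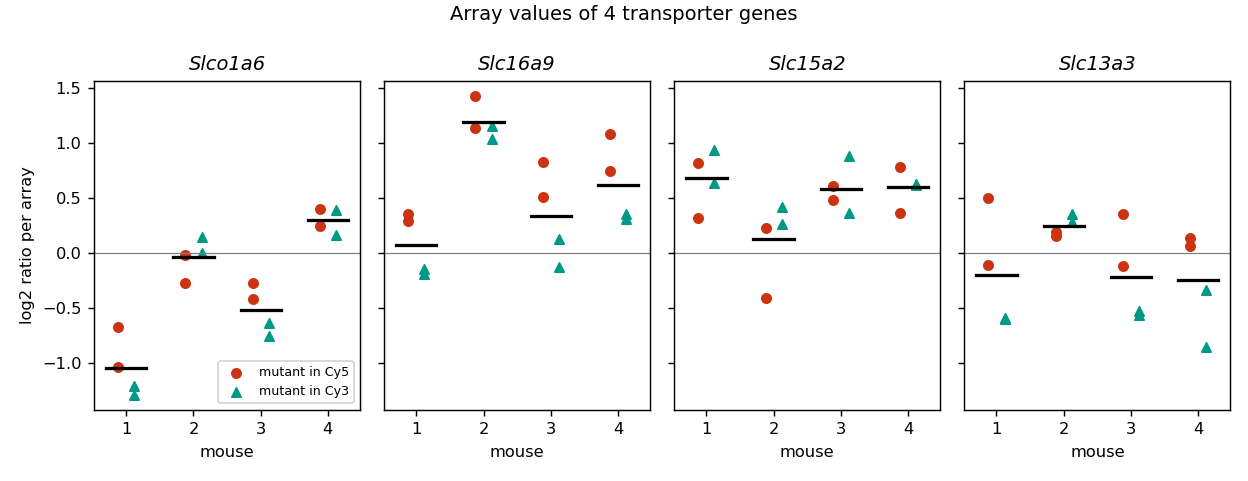
Log2 ratio on each array for Slco1a6, Slc16a9, Slc15a2 and Slc13a3 by mouse, with the mutant in Cy5 (circles) or in Cy3 (triangles) and the value of the mouse (black bar). Mouse 1 is lowest for Slco1a6 at -1.05, mouse 2 is highest for Slc16a9 at 1.19, and the value of mouse 2 is the lowest for Slc15a2 and the highest for Slc13a3, while single arrays of mouse 2 overlap those of other mice for both.

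Sulfate and carboxylate carriers (Slc13 and Slc26) counted 8 genes with a median of 0.01, or -0.00 without centring and 0.02 as Cy5 over Cy3. Slc13a5, the sodium-citrate cotransporter, had -0.20, -0.08, -0.15 and -0.20 in mice 1 to 4, a mean of -0.16 ± 0.05 (SD, n = 4), and was negative in both orientations. Slc13a3, the basolateral dicarboxylate carrier, was at 0.25 in mouse 2, whereas the other mice lay between -0.25 and -0.20. Its orientation means differed in sign, 0.15 for mutant RNA in Cy5 and -0.36 in Cy3, and it was not called between mice (limma F-test, adjusted p = 0.537). The sulfate exchanger Slc26a1 had 0.01 ± 0.19. Slc26a4, the chloride-bicarbonate exchanger pendrin of intercalated cells, reached 0.61 in mouse 1, whereas the other mice lay between -0.03 and 0.10, with a mean of 0.19 ± 0.28.

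Mitochondrial carriers, the family Slc25, counted 25 genes with a median of 0.05, and 16 of the means were positive (15 without centring). Read as Cy5 over Cy3, 12 were positive and the median was -0.01. At an unadjusted p under 0.05, 3 of the 25 were higher and 0 lower, beside 5.83 and 3.21 percent of all rows. Slc25a16, a carrier linked to coenzyme A, had 0.08, 0.35, 0.30 and 0.36 in mice 1 to 4, a mean of 0.27 ± 0.13 (SD, n = 4). Slc25a5, the ADP/ATP exchanger ANT2, had 0.04, 0.46, 0.24 and 0.53, a mean of 0.32 ± 0.22. For both genes mouse 1 was the lowest and no mouse was below 0.

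The size for Slc25a5 came from one orientation, with 0.03 with the mutant in Cy5 and 0.61 with the mutant in Cy3. Slc25a51, the mitochondrial NAD carrier, had 0.16 ± 0.09 and was positive in every mouse, but its probes had means of 0.32 and -0.00. The dicarboxylate carrier Slc25a10 had 0.09 ± 0.12, with 0.10 and 0.08 for its probes. The class median was -0.02 in mouse 1 and 0.05 to 0.09 in the other mice.

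Metal carriers (Slc11, Slc30, Slc31, Slc39, Slc41, Slc48 and Slc49) counted 21 genes, 16 with positive means (14 without centring), and the median was 0.03. With values as Cy5 over Cy3, 10 were positive and the median was -0.05. The mutant in Cy5 alone gave 10 positive means and a median of -0.02, and the mutant in Cy3 alone 13 and 0.06. Slc39a4, the zinc importer ZIP4, had the highest mean of all carriers, with 1.32, 0.27, -0.05 and 0.80 in mice 1 to 4 and a mean of 0.59 ± 0.60 (SD, n = 4). Its arrays did not agree: they ran from -3.63 to 4.92 in mouse 1 alone, and the orientation means were -0.36 with the mutant in Cy5 and 1.53 with the mutant in Cy3. The repeat SD was 0.998, and 27 carriers (13.0%) had a repeat SD over 0.5.

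Slc30a9, a zinc transporter of mitochondria, was positive in every mouse, from 0.11 to 0.64, with a mean of 0.29 ± 0.25. Slc30a1, the zinc exporter of the plasma membrane, was negative in every mouse, from -0.41 to -0.04, with a mean of -0.21 ± 0.16. Its probes lay at -0.14 and -0.27. Slc11a2, the iron carrier DMT1, had 0.15 ± 0.11 over 3 probes, all with positive means.

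**Figure D5:**
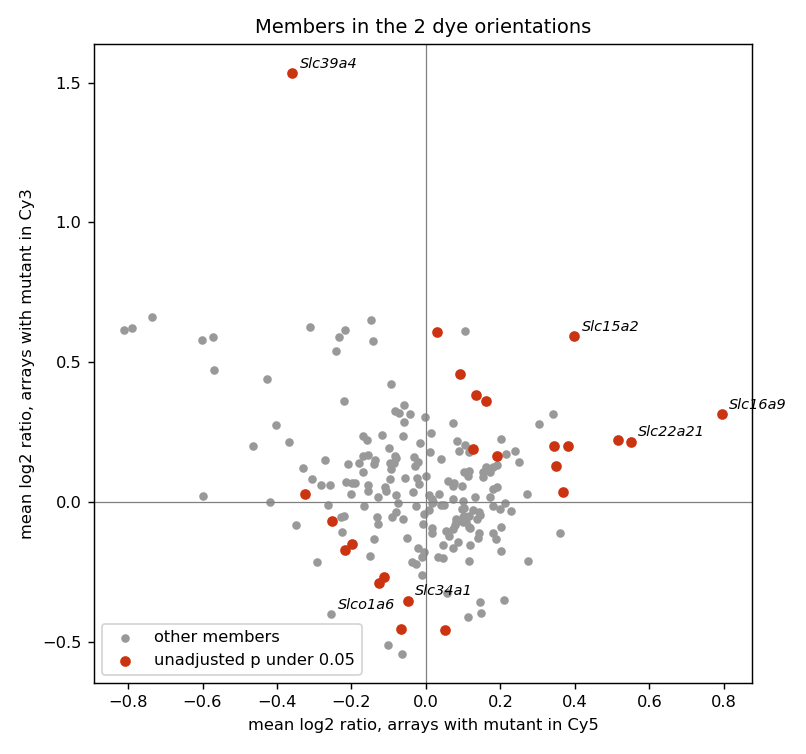
Mean log2 ratio of each carrier with the mutant labelled by Cy5 (horizontal axis) against the mean with Cy3 (vertical axis), with the 24 carriers at an unadjusted p under 0.05 in red. Of all 208 carriers, 88 lie in the quadrants of equal sign, and Slc39a4 lies at -0.36 and 1.53.

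Inorganic cation, chloride and bicarbonate carriers (Slc4, Slc8, Slc9, Slc12 and Slc24) counted 19 genes with a median of -0.01, which was 0.01 with scaled arrays and -0.10 as Cy5 over Cy3, and none had an unadjusted p under 0.05. Nearest were Slc24a3, a potassium-dependent sodium-calcium exchanger, with 0.16 ± 0.12 (SD, n = 4), Slc9b2, a sodium-proton exchanger relative, with -0.10 ± 0.04, and Slc12a7, a potassium-chloride cotransporter, with 0.11 ± 0.14. The probes of Slc24a3 lay at 0.39 and -0.06, so its mean rests on one of them. Slc4a1, the chloride-bicarbonate exchanger of red cells and of acid-secreting intercalated cells, had -0.04 ± 0.11.

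Nucleotide sugar carriers of the Golgi (Slc35) counted 16 genes with a median of 0.02 and 10 positive means (-0.03 and 6 as Cy5 over Cy3), and none at an unadjusted p under 0.05. Slc35e3 had 0.16 ± 0.13, Slc35d3 0.12 ± 0.13 and Slc35b4 0.14 ± 0.18. Vitamin, nucleoside and choline carriers counted 9 genes with a median of -0.02 (0.08 as Cy5 over Cy3). Slc44a4, a choline-like transporter of thiamine pyrophosphate, had 0.07, 0.27, 0.18 and 0.29 in mice 1 to 4, a mean of 0.20 ± 0.10, with 0.37 with the mutant in Cy5 and 0.04 in Cy3. Its relatives Slc44a1 and Slc44a2 had 0.18 ± 0.17 and -0.13 ± 0.09.

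All 4 measured genes for urea and fatty acids had negative means, with a median of -0.11. As Cy5 over Cy3, 2 of the 4 were positive and the median was 0.01. The urea transporter Slc14a1 had -0.12 ± 0.08 (SD, n = 4), and its 3 probes had means of -0.14, -0.14 and -0.09. The fatty acid transport proteins, which also activate fatty acids with coenzyme A, had -0.10 ± 0.07 for Slc27a4, -0.09 ± 0.05 for Slc27a5 and -0.14 ± 0.30 for Slc27a1. The first 2 were negative in every mouse, but of 16 arrays, 5 of Slc27a4 and 7 of Slc27a5 lay above 0. In mouse 1, Slc27a4 had -1.45 and -0.05 with the mutant in Cy5, and 0.25 and 0.45 in Cy3. Slc27a1 ran from -0.51 in mouse 2 to 0.15 in mouse 3. None had an unadjusted p under 0.05.

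Of 53 carriers listed for their known role in the kidney, 31 were tested: 21 means were positive and 10 negative, with a median of 0.03. Without centring 16 were positive, and as Cy5 over Cy3 17. At an unadjusted p under 0.05, 3 of the 31 were higher and 3 lower, where 5.83 percent of all rows were higher and 3.21 percent lower. These 6 were Slc15a2, Slc2a2 and Slc25a5 on the higher side and Slc34a1, Slc22a12 and Slc30a1 on the lower side. Genes that anchor, pair with or regulate carriers were listed too, and 13 of 19 were tested. Their median was 0.09 and 12 means were positive (0.06 and 7 as Cy5 over Cy3), but none passed limma's threshold. The 3 with the smallest p were Atp1b1, the beta chain of the sodium pump, with 0.54 ± 0.30, Ezr, which links membrane proteins to actin, with 0.30 ± 0.20, and Wnk4, a kinase of distal salt transport, with 0.18 ± 0.13. By mouse the median of these partners was 0.09, 0.19, -0.01 and 0.14, with mouse 2 the highest, as it was in 31.0% of all rows measured in 4 mice. The partner list shares Hnf4a with the proximal tubule markers, and Slc9a3r1 and Slc9a3r2 with the genes described here. The 3 array genes named after carriers but not carriers themselves, Slc4a1ap, Slc9a3r1 and Slc9a3r2, had -0.05 ± 0.07, 0.06 ± 0.10 and 0.18 ± 0.19.

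Where several probes measured 1 carrier, they gave a further view of the error. Of 56 such carriers, 28 had probes of one sign, the median gap between the lowest and the highest probe mean was 0.127, and 2 carriers had a gap of 0.5 or more. That gap exceeds the distance from 0 of most carriers, whose median absolute mean ratio was 0.0878. Markers of other cells were measured on the same arrays: the 4 collecting duct markers had a median of 0.28, 5 distal tubule markers 0.11, 5 endothelial markers 0.13 and 4 leukocyte markers -0.04. The 2 thick limb markers had a median of -0.23, 3 fat markers 0.12, 3 liver markers 0.05 and the 1 podocyte marker 0.23. Of the thick limb markers, Umod had -0.15 ± 0.20 (n = 4) and Egf -0.30 ± 1.20 (n = 3). No marker passed the threshold. Read as Cy5 over Cy3, the medians of the collecting duct, endothelial, leukocyte, thick limb, fat and liver lists change sign. Their part in the ratios of the carriers was not tested.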

How the data were processed

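The authors deposited 1 table of log2 ratios per probe with 1 column for each of 16 arrays; normalisation and background correction are not given in these sources, and the log2 base was inferred. Probes were named from the platform annotation, updated through RefSeq (GRCm38.p6): of 20355 probes, 14030 had 1 symbol, 5 several and 6320 none. The 510 values with a size over 10 (16.1 to 17.0, 7 of them on carrier probes) were treated as missing.

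Arrays were centred on their medians, averaged within each dye orientation and then over both, for probes with at least 3 mice, and averaged by symbol (9846 genes, 6294 unnamed probes). Limma 3.58.1 (R 4.3.3, statmod 1.5.0) tested the mean of 4 mice against 0, and mice against each other on all arrays with a dye term, two-sided with Benjamini-Hochberg adjustment over all rows at 0.05. With 4 mice an exact sign-flip test cannot give a p under 0.125. The scripts were tested on simulated data.

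Alternatives were centring, scaling by median absolute deviation, single probes, complete probes, extreme values kept, a random mouse block, single orientations and repeats, medians, reading the values as Cy5 over Cy3, and leaving out each mouse. Genes were named by rule: the 3 smallest p of each of 11 classes, every gene past a threshold, 53 kidney carriers by role and 3 of the partner list. Slc5a11, Slc45a3, Slc16a1, Slc7a5, Slc51b, Slc6a4, Slc27a1 and the 3 genes that are not carriers were named after their values were seen. The members and lists were chosen with earlier results of these data known.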

Additional observations from a re-analysis of the deposited data

Results flagged for a closer look

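Of 55 named carriers with values in 4 mice, 2 had a mouse far from the others, where about 1 in 20 would by chance. Slc13a3, the dicarboxylate carrier, was at 0.25 in mouse 2, with the other mice at -0.25 to -0.20. Its orientation means were 0.15 for mutant RNA in Cy5 and -0.36 in Cy3, and its adjusted p between mice was 0.537 in limma's F-test. Slc15a2, the peptide transporter PEPT2, was at 0.13 in mouse 2, with the other mice at 0.58 to 0.68. The arrays of mouse 2 had 0.23 and -0.41 with the mutant in Cy5, and 0.42 and 0.265 with it in Cy3. Its low value thus rests largely on 1 array, and Slc15a2 was not called in the F-test between mice.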

How the results depend on the processing

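No carrier passed the threshold against the pool under any alternative except a fit to single arrays that took the mouse as a random block, which called 4 (Slc15a2, Slc16a9, Slc17a7 and Slc22a21) among 221 of all rows. Its estimated correlation within mice was 0.0355, so it counts arrays almost as separate samples. At an unadjusted p under 0.05 it had 28 carriers higher and 15 lower, in all 43 (20.7%), beside 14.1% of all rows. The count of lower carriers was 19 with the mutant in Cy5 alone and 24 with values read as Cy5 over Cy3. In either direction there were 33 (15.9%, beside 15.6% of rows) and 35 (16.8%, beside 20.2% of rows). Leaving out 1 mouse gave 5 to 17 higher and 3 to 7 lower carriers. In either direction these were 3.92% to 11.8% of carriers, beside 5.28% to 8.95% of rows. The median log2 ratio of solute carrier genes was 0.000219 without centring, -0.00119 and 0.0446 with the mutant in Cy5 or Cy3 alone, 0.00894 and 0.0244 in repeats 1 and 2, -0.00591 as Cy5 over Cy3, and 0.00658 to 0.0287 without 1 mouse. Between mice, 1 carrier was called with scaled arrays (among 16 of 15856 rows), 0 as Cy5 over Cy3 (2 rows), and 0 to 2 without 1 mouse (4 to 14 rows). Read as Cy5 over Cy3, 12 of the 24 carriers with an unadjusted p under 0.05 changed sign; no centring and scaled arrays changed 0. Leaving out mouse 4 kept 5 of the 24 under 0.05. The causes were not tested. No paired analysis was possible because every mouse was measured against the same pool. Signal over background is unknown.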
